A study of Oryza sativa Japonica Group with 8 samples.

Results

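The heat shock genes of rice were followed in leaf RNA-seq libraries in which the glycine-rich RNA-binding protein gene OsGRP3 had been overexpressed or knocked down. They were taken by their annotation, as every gene whose deposited description names heat shock, heat stress, Hsp20, Hsp70, Hsp90 or DnaJ, which gave 224 of the 37869 genes in the table. Their 9 classes were 109 DnaJ genes, 39 genes with an HSP20 domain, 28 HSP70 genes, 23 heat shock factors, 7 HSP90 genes, 5 further co-chaperones, 2 HSP100 genes, 2 heat shock factor-binding proteins and 9 other genes. All plants were 4 weeks old by the labels and the study's methods, while a legend in the study gives a younger age. They were grown in soil with no treatment. For each of 4 groups 2 leaf libraries were made. Non-transgenic (NT) plants of cultivar Nakdong were the controls of OsGRP3-OE plants, in which the OsCc1 promoter drove OsGRP3 in Nakdong. NT plants of cultivar Dongjin were the controls of OsGRP3-KD plants, in which an inverted repeat expressed from the OsGOS2 promoter silenced OsGRP3 by RNA interference in Dongjin. Neither promoter is specific to one cell type, and the transgenic line behind each library, and whether plants were pooled, are not given in the sources used here. The study calls its paired libraries biological replicates, but the labels do not say that they came from separate plants, so the p-values measure the spread between libraries, which may be technical.

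Heat shock proteins are molecular chaperones, which bind unfolded or partly folded proteins. Small heat shock proteins with an HSP20 (alpha-crystallin) domain hold unfolding proteins without using ATP, DnaJ (HSP40) proteins pass clients to HSP70 and stimulate its ATPase, HSP90 acts on late folding steps of signalling proteins, and HSP100 (ClpB) pulls proteins out of aggregates. Class A heat shock factors are the transcription factors that switch on these genes in heat, class B factors mostly lack an activation domain, and heat shock factor-binding proteins dampen the factors. Many members are also expressed without heat, as constitutive chaperones of the cytosol, the chloroplast and the mitochondrion.

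The libraries held 25836946 to 38940899 estimated counts. Levels are given here as CPM, the counts scaled to library size with TMM factors, which is the scale of the fold changes and compares libraries for 1 gene, and as TPM, which also divides by transcript length and compares genes. The NT Dongjin libraries stood apart from the other 6. In them 13721 and 13166 genes were at 0, against 11070 to 11903 elsewhere, and the median log2 ratio of read coverage on the first exon to that on the last, over 6883 genes, was -0.87 and -0.80, against -2.90 to -2.52. Over the 50 heat shock genes that gave this ratio it was -0.78 and -0.72 against -2.67 to -2.27. The clock gene LHY (Os08g0157600), which peaks around dawn, was at 4100.3 and 4106 CPM in NT Dongjin and between 139.6 and 167 CPM in the other 6. Of the 9 clock genes compared, 2 rose and 1 (LHY, log2 fold change -4.87) fell by 2-fold in OsGRP3-KD against NT Dongjin, at an edgeR adjusted p under 0.05. Of all genes tested 23.8% rose and 13.8% fell, so the clock share is near that of any gene. The 2 that rose were PRR1 (Os02g0618200, 3.69) and LUX (Os01g0971800, 2.53). PRR59 (Os11g0157600, 0.95), PRR95 (Os09g0532400, 0.66) and ELF3 (Os06g0142600, -0.71) differed by less than 2-fold at an edgeR adjusted p under 0.05. GI (Os01g0182600, 0.20), PRR73 (Os03g0284100, -0.10) and PRR37 (Os07g0695100, 0.11) had log2 fold changes close to 0. The leaf markers (20 genes, 4 of them at 0 in every library) summed to 64328 and 64201 TPM in NT Dongjin and to 96750 to 113819 TPM elsewhere. The seed markers (50 genes, 37 at 0 in every library) summed to 57.1 and 62.2 TPM in NT Dongjin and to 121 to 172 TPM elsewhere. The markers of dividing cells (34 genes, 6 at 0 in every library) summed to 2759.7 and 2795 TPM in NT Dongjin. These sums lay within the 2585 to 2817 TPM of the other 6. In OsGRP3-KD against NT Dongjin, 11 of the 26 tested rose and 1 fell, where 23.8% of all genes rose and 13.8% fell. Of 15 leaf markers tested 6 rose, of 8 seed markers 5 rose, and none of either fell. These lists were taken by words in the descriptions. The dividing-cell list also held histone H4 acetyltransferase complex genes (Os01g0233400, Os12g0298600), and the seed list a vacuolar processing enzyme (Os04g0537900). OsGRP3 itself (Os03g0670700) was at 1250 and 1171 CPM in NT Nakdong, 1527 and 1928 in OsGRP3-OE, 399.9 and 403 in NT Dongjin and 345 and 325 in OsGRP3-KD, and neither OsGRP3-OE against NT Nakdong (log2 fold change 0.51, edgeR adjusted p = 0.067) nor OsGRP3-KD against NT Dongjin (-0.26, adjusted p = 0.076) passed an adjusted p of 0.05. The study reports a much larger fall of OsGRP3 in the knockdown and a larger rise in the overexpressor, from its RNA-seq and from qRT-PCR of younger leaves. Why the deposited counts gave smaller differences was not tested. Against NT Nakdong, OsGRP3 was lower in OsGRP3-KD (-1.85, adjusted p = 7.0e-05) and also in NT Dongjin (-1.59, adjusted p = 5.5e-06). The counts for OsGRP3-KD are therefore given against NT Dongjin and, without those libraries, against NT Nakdong, a comparison that joins knockdown and cultivar, which cannot be told apart in it. The part that coverage, clock phase and library quality play in the differences from NT Dongjin was not tested. In whole leaves, fewer cells of a type and less RNA per cell cannot be told apart.

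In these unheated leaves the levels of the heat shock genes differed widely. Over the mean of the 8 libraries, 15 of the 224 genes reached 100 TPM, 94 lay between 10 and 100, 73 between 1 and 10, and 42 below 1, among them 9 with no count in any library. The highest were the DnaJ genes Os04g0549600 (567 TPM) and Os05g0110100 (461 TPM, cysteine-rich domain), the HSP70 gene Os11g0703900 (369 TPM) and Os11g0216100 (365 TPM), described as a heat shock protein binding protein. The second HSP70 gene by level, Os05g0303000, encodes a chloroplast HSP70 (205 TPM). Of 39 HSP20-domain genes 11 were below 1 TPM and only Os01g0135900, a cytosolic class I small heat shock protein, was above 100 (266 TPM), ahead of Os03g0277100 (77.6 TPM). Its class I neighbours on chromosome 1 were nearly silent, at 0.0173 (Os01g0135800) to 2.56 TPM (Os01g0136200). The 23 heat shock factors had a median of 1.83 TPM, and the highest were Os03g0161900 (heat stress transcription factor A-2d, 50.95 TPM) and Os03g0854500 (48.9 TPM). Factor A-2a (Os03g0745000) was close to 0 and was not tested. The classical HSP101 gene Os05g0519700 averaged 1.16 TPM, while Os03g0426900, whose transcripts are described as HSP101-like and CLPB-P-like, made up 95.2% to 98.7% of the HSP100 TPM in each library.

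The class totals of the 4 groups are plotted by library. The 28 HSP70 genes summed to 1729 and 1734 in NT Nakdong, 1372 and 1468 in OsGRP3-OE, 2888 and 2918 in NT Dongjin and 1514 and 1471 in OsGRP3-KD CPM. For the 7 HSP90 genes the totals were 798 and 801 in NT Nakdong, 758 and 751 in OsGRP3-OE, 1379 and 1378 in NT Dongjin and 550.1 and 506 in OsGRP3-KD. The 2 HSP100 genes reached 68.1 and 67.1 in NT Nakdong, 60.1 and 61.04 in OsGRP3-OE, 272 and 268 in NT Dongjin and 62.4 and 60.9 in OsGRP3-KD. In all 3 classes both NT Dongjin libraries lay above the other 6. The 39 HSP20-domain genes went the other way, with 506 and 574 in NT Nakdong, 625 and 585 in OsGRP3-OE, 456 and 457 in NT Dongjin and 646 and 641 in OsGRP3-KD. That lower total rested on Os01g0135900 alone: without it the HSP20-domain genes tested summed to 396 and 398 CPM in NT Dongjin, above the 318 to 389 of the other 6 libraries. DnaJ genes summed to 4109.9 and 4136 in NT Nakdong, 4421 and 4389.9 in OsGRP3-OE, 4747 and 4836 in NT Dongjin and 4269.5 and 4385 in OsGRP3-KD, and heat shock factors to 296 and 295 in NT Nakdong, 299 and 290.2 in OsGRP3-OE, 344 and 356 in NT Dongjin and 273 and 287 in OsGRP3-KD, with NT Dongjin again highest. These totals are descriptions and were not tested.

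**Figure D1:**
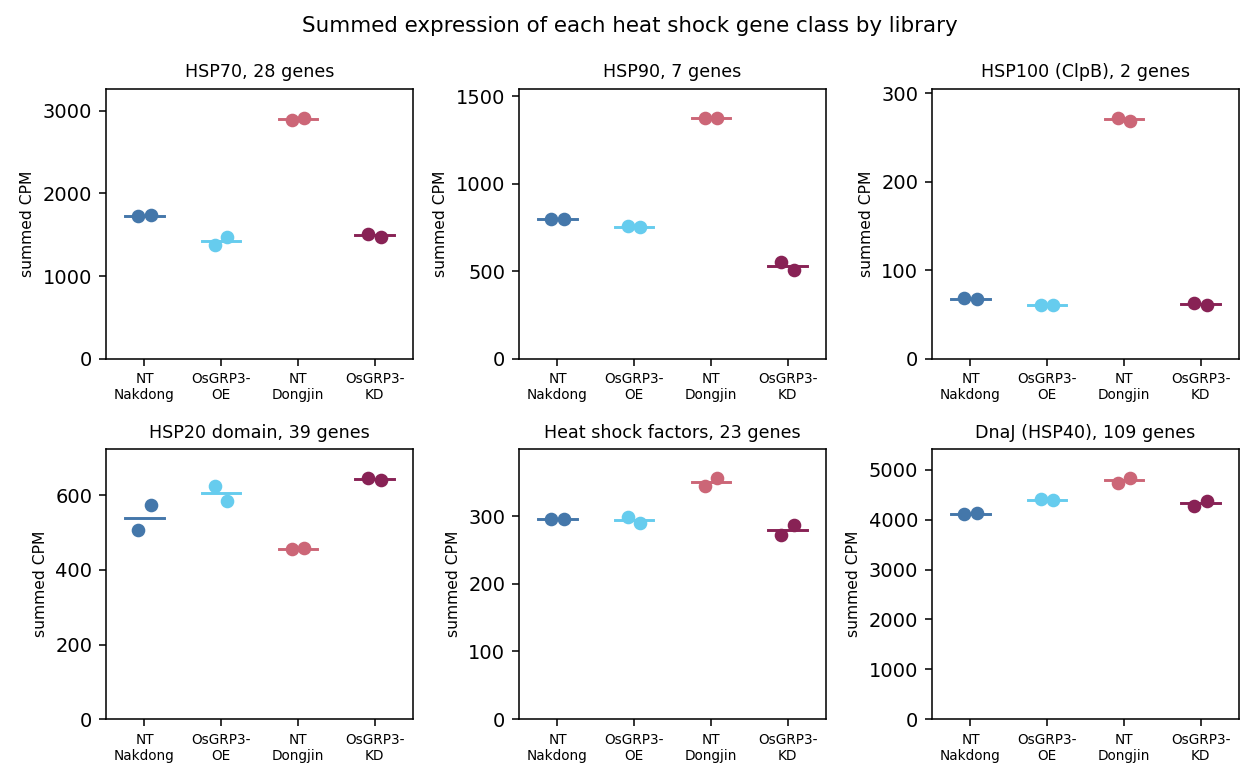
Summed CPM of 6 heat shock gene classes (vertical axes from 0) in each of the 8 libraries; points are libraries and bars the means of 2. HSP70, HSP90 and HSP100 totals are highest in both NT Dongjin libraries (HSP70 2888 and 2918 CPM), while the HSP20-domain total is lowest there (456 and 457 CPM).

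The first comparison asks which heat shock genes differ when OsGRP3 is overexpressed. None of the 197 members that passed the filter on low counts was called in OsGRP3-OE against NT Nakdong at 2-fold and an adjusted p under 0.05 by edgeR, and none by DESeq2, where 1.47% of all 24383 genes tested were called by edgeR (0.619% up and 0.853% down). At an unadjusted p under 0.05 and with no fold threshold, 25 of the 197 members differed, where 3432 of all 24383 genes tested did. With the 2-fold threshold added, 1 member fell and none rose, where 4.34% of all genes passed (1.74% up and 2.6% down). The median log2 fold change of the members was -0.03, against 0.00 for all genes. By class, 18 of 20 HSP70 genes and 21 of 29 HSP20-domain genes tested had a negative fold change, with medians of -0.17 and -0.27, whereas DnaJ genes (56 of 105 positive) had a median of 0.02 and heat shock factors (11 of 20 positive) of 0.08.

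Os12g0569700, an HSP70 gene singled out after its values were seen, lay closest to a call (chromosome 12, 23442171 to 23447194, IRGSP-1.0). Its levels were 84.1 and 79.5 in NT Nakdong, 40.4 and 42.8 in OsGRP3-OE, 147 and 135 in NT Dongjin and 79.5 and 66.5 in OsGRP3-KD CPM. Both overexpressor libraries lay below the 6 others. It fell in OsGRP3-OE, with a log2 fold change of -0.98 ± 0.10 (SE), edgeR adjusted p = 0.0014, just short of 2-fold, and the adjusted p ran from 7.0e-14 to 0.0067 over 11 alternative settings. Os12g0569800, annotated on the opposite strand inside it, averaged 0.04 TPM. The single gene past 2-fold at an unadjusted p was Os01g0136200, a 16.9 kDa class I small heat shock protein, at 2.35 and 1.99 in NT Nakdong, 1.04 and 1.05 in OsGRP3-OE, 0.64 and 1.1 in NT Dongjin and 2.66 and 2.97 in OsGRP3-KD CPM. The overexpressor libraries lay below both NT Nakdong libraries but close to NT Dongjin, and the log2 fold change of -1.05 ± 0.35 (SE), edgeR adjusted p = 0.21, did not pass.

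The most expressed HSP70 gene, Os11g0703900, was at 691 and 712 in NT Nakdong, 547 and 599.9 in OsGRP3-OE, 1013 and 1003 in NT Dongjin and 698 and 671 in OsGRP3-KD CPM. Its values in OsGRP3-OE lay below both NT Nakdong libraries, at a log2 fold change of -0.29 ± 0.08 (SE), edgeR adjusted p = 0.14, with an adjusted p of 0.010 by DESeq2. The class I gene Os01g0135900 (176 and 214 in NT Nakdong, 235 and 265 in OsGRP3-OE, 59.8 and 58.6 in NT Dongjin and 294 and 307 in OsGRP3-KD CPM) lay higher in both overexpressor libraries, at 0.36 ± 0.11 (SE), edgeR adjusted p = 0.16, with 0.044 by DESeq2. The 2 libraries of OsGRP3-OE differed most at Os11g0696600, an HSP70-domain gene on chromosome 11 (28496703 to 28499952) that was also picked after its values were seen. It was at 116 and 125 in NT Nakdong, 0 and 105 in OsGRP3-OE, 0 and 0 in NT Dongjin and 0 and 0 in OsGRP3-KD CPM. The gene was thus at 0 in 5 libraries, 1 of them an overexpressor library, and above 100 CPM in the other 3. Its fit in OsGRP3-OE had an edgeR adjusted p of 0.79, with no overexpressor level that both libraries shared. Without Os11g0696600 the HSP70 genes tested summed to 1613 and 1609 CPM in NT Nakdong and 1372 and 1363 CPM in OsGRP3-OE. The heat shock factors A-2d (Os03g0161900, 0.10) and Os03g0854500 (-0.05), the factor-binding proteins Os06g0274000 (-0.06) and Os09g0375100 (0.01) and the HSP90 ATPase activators Os08g0464000 (-0.04) and Os06g0703800 (0.26) had log2 fold changes within 0.26 of 0, and none passed.

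The second comparison asks which heat shock genes differ in the plants labelled as the knockdown, in which OsGRP3 itself did not pass the test against NT Dongjin. Against NT Dongjin, 38 members rose and 38 fell in OsGRP3-KD by 2-fold at an adjusted p under 0.05, which is 38.6% of those tested, where 37.6% of all genes tested were called (23.8% up and 13.8% down). The share is therefore near that of any gene, and the median log2 fold change was -0.21 against 0.14 for all genes. With limma on log2(TPM + 1) and a mean TPM of at least 0.5, written below as on TPM, 24 members rose and 49 fell. Test, filter and scale all differ there from the edgeR counts, so the shift cannot be put down to the scale alone. Rises made up 32.9% of the members' calls in place of 50%, and the median of all genes moved to -0.17. In that setting 14.7% of all genes rose and 18.5% fell (33.2% called), so that rises were 44.3% of the calls in place of 63.3%. The direction differed by class on these counts. Of the HSP20-domain genes tested 14 of 29 rose and 2 fell, with a median of 0.95. Several of these rises were in genes at or near 0 in NT Dongjin, which passed the filter through the other groups. Fewer HSP20-domain genes rose when at least 10 counts were asked of every library, as given below. On TPM 8 of the HSP20-domain genes rose and 4 fell. No HSP70, HSP90 or HSP100 gene rose, while 9 of 20, 4 of 6 and 2 of 2 fell, with medians of -0.96, -1.24 and -1.86. DnaJ genes were split (21 up and 14 down of 105), as were heat shock factors (2 up and 3 down of 20). Against NT Nakdong, by contrast, no member rose and 8 fell, 4.06% of those tested where 4.4% of all genes were called (1.36% up and 3.04% down), with a median of -0.05 against 0.01. At an unadjusted p, 1 rose and 10 fell by 2-fold in that comparison, where 8.51% of all genes passed (2.97% up and 5.54% down), and DESeq2 called 1 rise. No HSP70 or HSP100 gene was among the 8. The HSP70 gene Os11g0696600 was at 0 in both OsGRP3-KD libraries and at 116 and 125 CPM in NT Nakdong, which did not pass (adjusted p = 0.074).

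**Figure D2:**
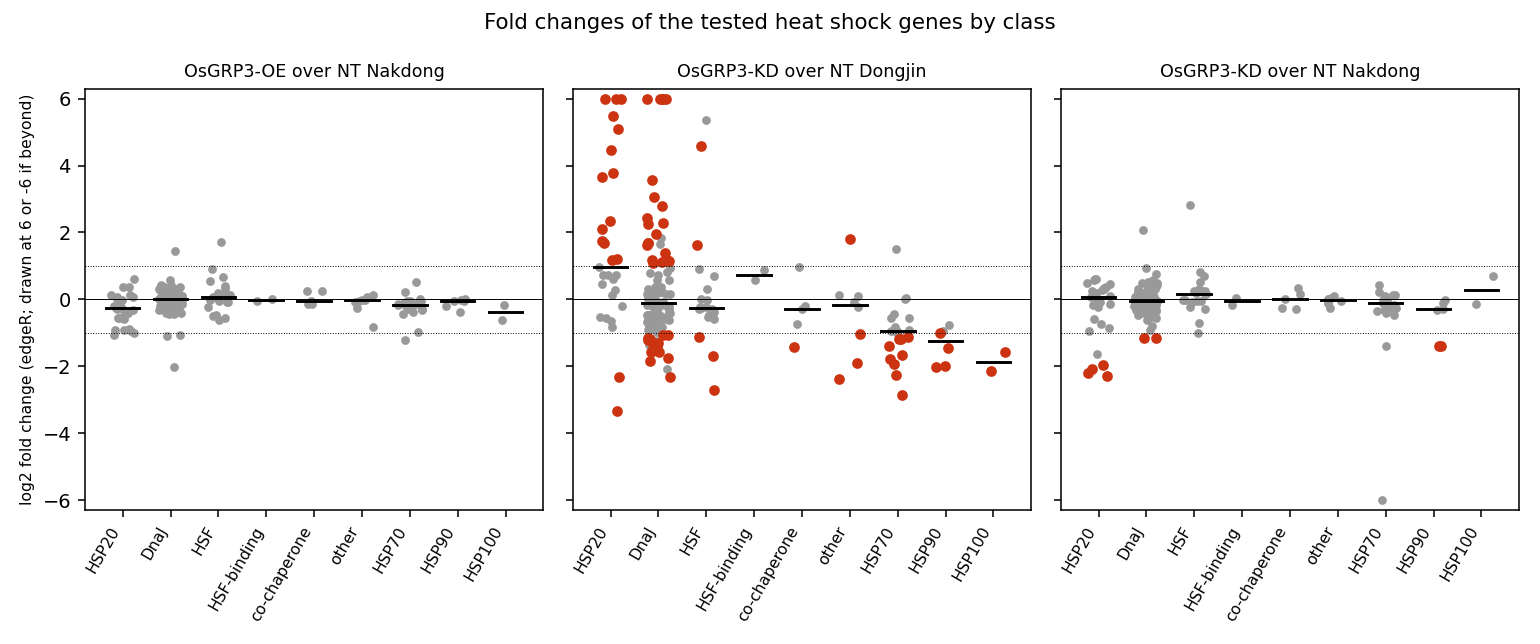
Log2 fold changes of the 197 heat shock genes tested, by class, in 3 comparisons; red points passed 2-fold and an adjusted p of 0.05, short bars are class medians, dotted lines mark 2-fold, and values beyond 6 are drawn at 6 or -6. No point is red in the overexpressor, 76 are red in the knockdown against NT Dongjin, and 8 in the knockdown against NT Nakdong.

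The largest falls against NT Dongjin covered each chaperone class. Os02g0782500, a class CIII small heat stress protein, was at 1.16 and 2.84 in NT Nakdong, 1.66 and 1.23 in OsGRP3-OE, 25.2 and 24.5 in NT Dongjin and 1.83 and 3.08 in OsGRP3-KD CPM. It fell in OsGRP3-KD by 3.35 on the log2 scale (-3.35 ± 0.38 (SE), edgeR adjusted p = 6.7e-05), and its level there overlapped that in NT Nakdong. Os05g0460000, described as heat shock cognate protein 1 of the HSP70 class, was at 10.8 and 14.5 in NT Nakdong, 11.98 and 8.55 in OsGRP3-OE, 124 and 123 in NT Dongjin and 15.7 and 18.6 in OsGRP3-KD CPM (log2 fold change -2.85 ± 0.19 (SE), edgeR adjusted p = 2.8e-06). Both genes were high only in the NT Dongjin libraries. Among the heat shock factors, Os02g0232000 was at 0.729 and 0.929 in NT Nakdong, 1.24 and 1.41 in OsGRP3-OE, 8.62 and 10.8 in NT Dongjin and 1.47 and 1.49 in OsGRP3-KD CPM and fell by 2.71 on the log2 scale (adjusted p = 1.9e-05). The class B factor B-2c (Os09g0526600) also fell (-1.69, adjusted p = 1.3e-05), as did Os04g0568700 (-1.12, adjusted p = 0.025), described as similar to Spl7. The factors Os02g0527300 (1.61, adjusted p = 5.2e-06) and Os01g0733200 rose; the latter held 3 counts in NT Dongjin and 73 in OsGRP3-KD, a ratio of 25.6 with a 95% counting interval of 8.42 to 127 (exact binomial, counting error only). The most expressed factors lay lower by less than 2-fold, at -0.47 for Os03g0854500 (-0.93 on the last exon and -0.84 on TPM) and -0.39 for A-2d (Os03g0161900; -0.95 on the last exon and -0.73 on TPM). The difference of A-2d did not pass without NT Dongjin replicate 2 (-0.35, adjusted p = 0.086) or without OsGRP3-KD replicate 1 (-0.23, adjusted p = 0.059). The factor-binding proteins Os06g0274000 (0.87) and Os09g0375100 (0.59) lay higher by less than 2-fold. The latter did not pass on the last exon (0.21, adjusted p = 0.14). Against NT Nakdong none of these factors and binding proteins was called. There Os02g0232000 was at 0.82 (adjusted p = 0.098), Os09g0526600 at -0.05, Os04g0568700 at 0.24, Os02g0527300 at -0.22 and Os01g0733200 at 2.82 (adjusted p = 0.072).

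The disaggregase gene Os03g0426900 was at 67.6 and 65.97 in NT Nakdong, 59.4 and 60.6 in OsGRP3-OE, 269 and 264 in NT Dongjin and 61.2 and 59.4 in OsGRP3-KD CPM. Both NT Dongjin libraries lay far above the other 6, and the log2 fold change was -2.14 ± 0.07 (SE), edgeR adjusted p = 1.4e-07 against NT Dongjin and -0.15 ± 0.07 (SE), edgeR adjusted p = 0.24 against NT Nakdong. HSP101 (Os05g0519700) was at 0.53 and 1.14 in NT Nakdong, 0.656 and 0.435 in OsGRP3-OE, 3.73 and 4.46 in NT Dongjin and 1.22 and 1.52 in OsGRP3-KD CPM and fell by 1.58 on the log2 scale. The call was lost without NT Dongjin replicate 2 (adjusted p = 0.056), on the last exon (-1.41, adjusted p = 0.077) and on log2 FPKM or TPM, where it lay between -0.95 and -0.58. The fall of Os03g0426900 was smaller on the last exon (-1.08, adjusted p = 2.9e-05). On chromosome 1, the HSP70 gene Os01g0840100 (18.7 and 17.8 in NT Nakdong, 16.3 and 15.4 in OsGRP3-OE, 65.1 and 73.2 in NT Dongjin and 14.99 and 13.9 in OsGRP3-KD CPM) and the HSP20-like gene Os01g0840200 (22.4 and 21.8 in NT Nakdong, 19.03 and 18.3 in OsGRP3-OE, 98.7 and 102 in NT Dongjin and 19.6 and 20.6 in OsGRP3-KD CPM) lie 1030 bases apart and point towards each other. They fell together, by 2.26 and 2.32 on the log2 scale. The DnaJ gene Os05g0579900 was at 28.7 and 26.7 in NT Nakdong, 21.7 and 25.1 in OsGRP3-OE, 121 and 120.3 in NT Dongjin and 25.1 and 23.5 in OsGRP3-KD CPM (log2 fold change -2.31) and the tetratricopeptide gene Os08g0296900 at 14.8 and 11.97 in NT Nakdong, 13.1 and 13.6 in OsGRP3-OE, 58.9 and 58.5 in NT Dongjin and 12.7 and 9.69 in OsGRP3-KD CPM (-2.39). None of these 6 genes was called in OsGRP3-KD against NT Nakdong. STI (Os02g0644100), the HSP70-HSP90 bridging co-chaperone, fell likewise against NT Dongjin (-1.42, adjusted p = 2.5e-06) and was at -0.29 against NT Nakdong (adjusted p = 0.086), while the HSP90 ATPase activator Os06g0703800 lay higher by less than 2-fold (0.97, adjusted p = 0.00021) and Os08g0464000 did not pass (-0.21, adjusted p = 0.23).

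**Figure D3:**
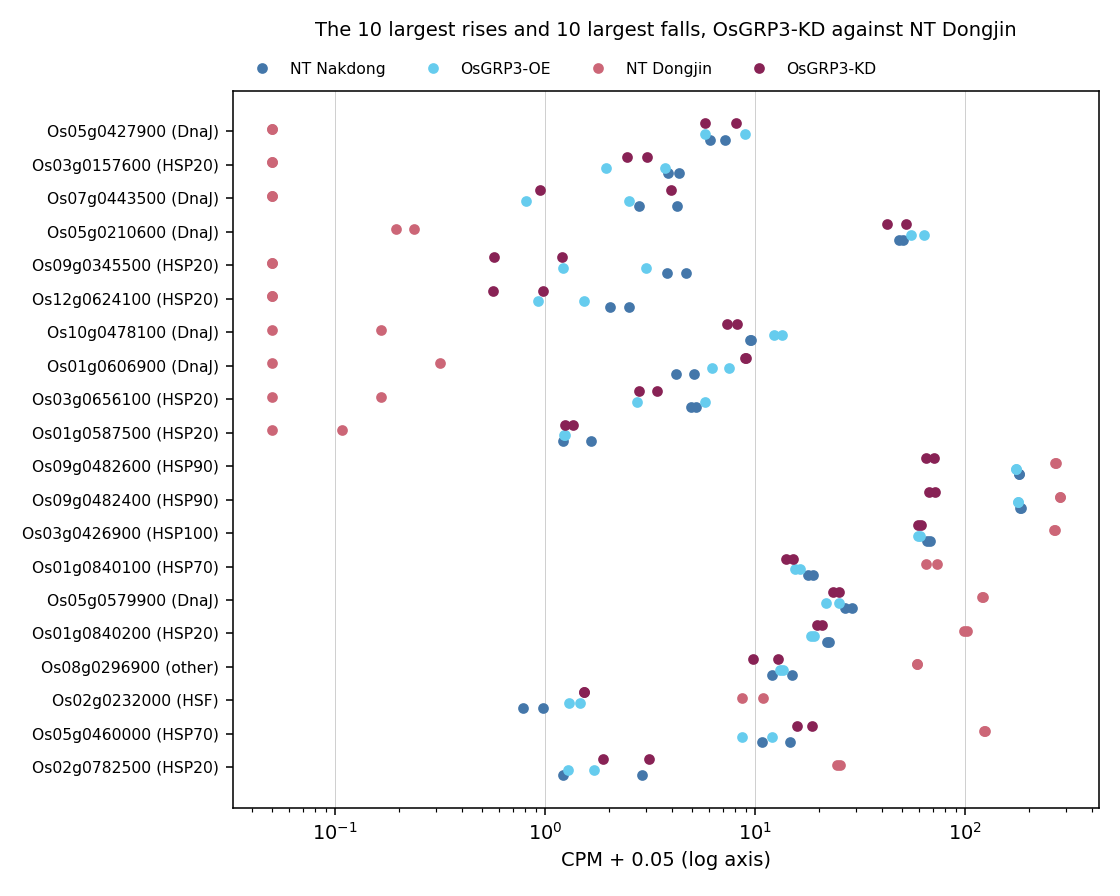
CPM with 0.05 added (log axis) of the 20 heat shock genes with the largest rises and falls in the knockdown against NT Dongjin; each point is 1 library. In the 10 genes at the top both NT Dongjin libraries lie far to the left of the other 6, and in the 10 at the bottom they lie to the right, while the HSP90 genes Os09g0482400 and Os09g0482600 lie lowest in the knockdown.

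The largest rises against NT Dongjin were genes that NT Dongjin hardly held. Os05g0210600, an Hsp40 gene, was at 48.2 and 50.3 in NT Nakdong, 63.3 and 55.1 in OsGRP3-OE, 0.188 and 0.145 in NT Dongjin and 52.2 and 42.4 in OsGRP3-KD CPM. Only the NT Dongjin libraries were low, and the log2 fold change of OsGRP3-KD was 8.14 ± 0.21 (SE), edgeR adjusted p = 7.9e-08 against NT Dongjin and -0.06 ± 0.12 (SE), edgeR adjusted p = 0.82 against NT Nakdong. Of the members tested, 5 had no count in either NT Dongjin library and counts in all other 6 (2.54%), where 3.94% of all genes tested did so. They were the DnaJ genes Os05g0427900 (6.06 and 7.15 in NT Nakdong, 8.87 and 5.69 in OsGRP3-OE, 0 and 0 in NT Dongjin and 8.07 and 5.72 in OsGRP3-KD CPM) and Os07g0443500 (4.17 and 2.73 in NT Nakdong, 2.45 and 0.761 in OsGRP3-OE, 0 and 0 in NT Dongjin and 0.897 and 3.9 in OsGRP3-KD CPM) and the HSP20-domain genes Os03g0157600, Os09g0345500 and Os12g0624100. Set against a floor of 3 counts per library, they were at least 69.1-fold, 24.0-fold, 27.1-fold, 8.38-fold and 7.21-fold higher in OsGRP3-KD. Os10g0478100 and Os01g0606900 (DnaJ), Os03g0656100 and Os01g0587500 (HSP20-domain) had counts in only 1 of the NT Dongjin libraries, and the last held 2 counts there against 72 in OsGRP3-KD (ratio 37.9, 95% exact counting interval 10.1 to 319). With at least 10 counts asked of every library, which drops such genes, 23 of 169 members rose and 36 fell (13.6% and 21.3%). Of all genes 19.5% rose and 14.5% fell under that filter. Of 20 HSP20-domain genes 5 rose.

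Among well-counted HSP20-domain genes, Os01g0135900 had the clearest rise, with the levels given above, at a log2 fold change of 2.34 ± 0.11 (SE), edgeR adjusted p = 5.7e-07 against NT Dongjin. Against NT Nakdong it lay higher by less than 2-fold (0.62 ± 0.11 (SE), edgeR adjusted p = 0.011). Os03g0277100, the HSP20-like gene that led the class in NT Dongjin, lay lower in OsGRP3-KD (57.2 and 55.3 in NT Nakdong, 56.7 and 51.4 in OsGRP3-OE, 94.1 and 92.2 in NT Dongjin and 60.4 and 57.4 in OsGRP3-KD CPM, -0.66 ± 0.08 (SE), edgeR adjusted p = 0.00011). The small heat shock protein Oshsp17.7 (Os03g0267200) rose (1.22, adjusted p = 0.0023, and 0.10 against NT Nakdong), while its neighbours Oshsp17.3 (Os03g0266900, -0.20) and Oshsp18.0 (Os03g0267000, 0.12) did not pass. In the DnaJ class the gene with the highest level, Os04g0549600, was at 623 and 615 in NT Nakdong, 686 and 789 in OsGRP3-OE, 716 and 724 in NT Dongjin and 681 and 760.4 in OsGRP3-KD CPM and differed by 0.00 ± 0.10 (SE), a sign that other scalings turned (-0.32 on TPM). Os05g0110100 lay higher by 0.74 (adjusted p = 0.0016), which counts on the last exon alone did not keep (0.19, adjusted p = 0.34), and was at 0.13 against NT Nakdong (adjusted p = 0.61). Of the other genes, Os11g0216100 fell (243 and 252 in NT Nakdong, 291 and 249.5 in OsGRP3-OE, 509 and 509 in NT Dongjin and 241 and 256 in OsGRP3-KD CPM), by 1.03 on the log2 scale, just past 2-fold, and was at 0.01 against NT Nakdong. Os02g0782300 did not pass (0.12, adjusted p = 0.27).

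Of the 8 members called lower in OsGRP3-KD than in NT Nakdong, 2 HSP90 genes were called lower than in NT Dongjin as well. On chromosome 9 of IRGSP-1.0, Os09g0482100 (HSP82-like, 18514776 to 18518316), Os09g0482400 (HSP81-3-like, 18525590 to 18529774) and Os09g0482600 (HSP81-3-like, 18537082 to 18541201) lie in a row on the minus strand, with 3 exons each. Os09g0482400 was at 183 and 184 in NT Nakdong, 177 and 178 in OsGRP3-OE, 281 and 281 in NT Dongjin and 71.9 and 67.1 in OsGRP3-KD CPM. Os09g0482600 was at 179.9 and 179.8 in NT Nakdong, 173 and 174 in OsGRP3-OE, 270.3 and 268 in NT Dongjin and 70.8 and 65.2 in OsGRP3-KD CPM. Their knockdown libraries were the lowest of the 8. Os09g0482400 fell by 2.02 on the log2 scale against NT Dongjin (-2.02 ± 0.07 (SE), edgeR adjusted p = 1.9e-07) and by 1.40 against NT Nakdong (-1.40 ± 0.07 (SE), edgeR adjusted p = 2.1e-05). For Os09g0482600 these values were -1.98 and -1.40 (edgeR adjusted p = 2.1e-07 and 2.3e-05). Over 10 alternative settings the log2 fold change of Os09g0482400 against NT Nakdong ran from -1.52 to -1.39. The neighbour Os09g0482100 was at 215 and 217 in NT Nakdong, 208 and 215 in OsGRP3-OE, 426 and 427 in NT Dongjin and 211 and 211 in OsGRP3-KD CPM, with the knockdown level with NT Nakdong (-0.03 ± 0.07 (SE), edgeR adjusted p = 0.82). Os09g0482400 and Os09g0482600 carry the same description and nearly the same counts in every library, so reads may have been split between them in the counting, which was not tested. Both are included in the 8 calls and in the 4 of 6 HSP90 falls. The other HSP90 genes, Os06g0716700 (138 and 130.04 in NT Nakdong, 102 and 106 in OsGRP3-OE, 210.4 and 211 in NT Dongjin and 123 and 96.7 in OsGRP3-KD CPM) and Os08g0500700 (81.3 and 88.6 in NT Nakdong, 94.6 and 76.3 in OsGRP3-OE, 188 and 188 in NT Dongjin and 72.5 and 64.1 in OsGRP3-KD CPM), had log2 fold changes of -0.29 and -0.31 against NT Nakdong, which did not pass.

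**Figure D4:**
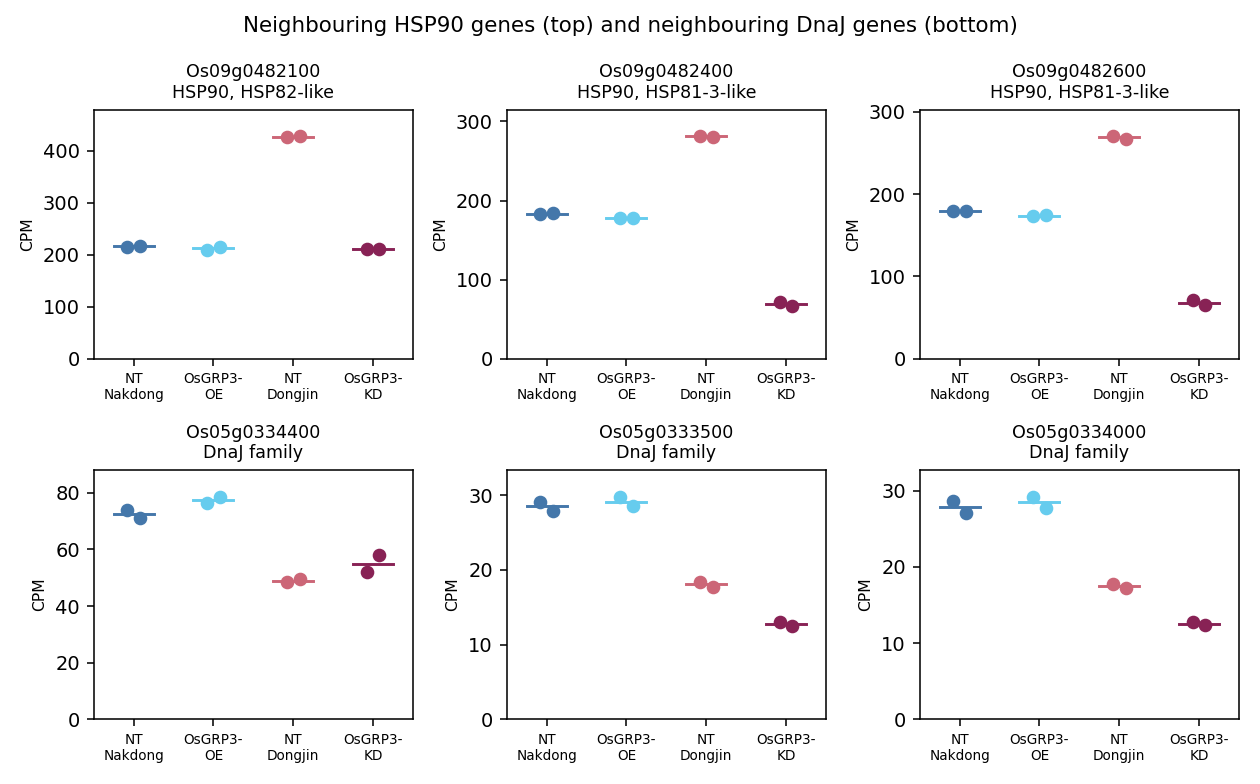
CPM by library (vertical axes from 0) of 3 neighbouring HSP90 genes on chromosome 9 and 3 neighbouring DnaJ genes on chromosome 5; points are libraries and bars the means of 2. Os09g0482400 and Os09g0482600 lie at 65.2 to 71.9 CPM in the knockdown and at 173 to 281 CPM elsewhere, while Os09g0482100 is level with NT Nakdong.

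The remaining 6 members called in OsGRP3-KD against NT Nakdong also came in neighbouring or low genes. The DnaJ genes Os05g0333500 (29.1 and 27.97 in NT Nakdong, 29.8 and 28.5 in OsGRP3-OE, 18.4 and 17.7 in NT Dongjin and 13.01 and 12.5 in OsGRP3-KD CPM) and Os05g0334000 (28.7 and 27.1 in NT Nakdong, 29.2 and 27.7 in OsGRP3-OE, 17.7 and 17.3 in NT Dongjin and 12.8 and 12.3 in OsGRP3-KD CPM) lie 2254 bases apart on chromosome 5, have transcripts of the same length (2192 bases, 8 exons) and nearly the same counts, so that reads may have been shared here too. They were lowest in the knockdown, at -1.16 and -1.15 against NT Nakdong (edgeR adjusted p = 0.00026 and 0.00028), and lower by less than 2-fold against NT Dongjin (-0.50 and -0.48, adjusted p = 0.0015 and 0.0022). Next to them Os05g0334400 (73.9 and 71.2 in NT Nakdong, 76.6 and 78.6 in OsGRP3-OE, 48.5 and 49.4 in NT Dongjin and 51.9 and 58.03 in OsGRP3-KD CPM) was low in both groups of cultivar Dongjin. The same split by cultivar held for the HSP20-domain gene Os06g0253100 (5.57 and 6.06 in NT Nakdong, 5.46 and 6.81 in OsGRP3-OE, 0.941 and 1.27 in NT Dongjin and 1.35 and 1.37 in OsGRP3-KD CPM), at -2.09 ± 0.25 (SE), edgeR adjusted p = 0.0021 against NT Nakdong and 0.28 ± 0.27 (SE), edgeR adjusted p = 0.38 against NT Dongjin. Os10g0159700 (14.8 and 14.5 in NT Nakdong, 9.19 and 6.27 in OsGRP3-OE, 0.263 and 0.0868 in NT Dongjin and 3.36 and 4.12 in OsGRP3-KD CPM) and its neighbour Os10g0159600 were lower than in NT Nakdong and higher than in NT Dongjin. The calls of Os10g0159600 (adjusted p = 0.039) and Os09g0345500 (adjusted p = 0.045) were lost when any 1 of several libraries was left out, with adjusted p of up to 0.29 and 0.24. These 8 genes were named after their values were seen.

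Transcript length moved with the direction of the knockdown difference. The median longest transcript was 834 bases for HSP20-domain genes, 1529 for DnaJ genes, 2254 for HSP70, 2440 for HSP90 and 3232.5 for HSP100 genes. Among the 197 members, length and the log2 fold change against NT Dongjin had a Spearman correlation of -0.57, and among all 24383 genes tested -0.41. These are correlations across genes of the same libraries and not across replicates. Members under 1 kb had a median log2 fold change of 0.74 and all genes under 1 kb of 0.88. From 2 to 3 kb the medians were -0.83 (37 members) and -0.39 (4945 genes), and over 3 kb -1.39 (21 members) and -0.91 (2508 genes). Against NT Nakdong the correlation was -0.31 among members and -0.19 among all genes, and in OsGRP3-OE it was -0.20 and -0.11. Counted on the 3′-most exon alone, 11 of 29 HSP20-domain genes rose and 5 fell against NT Dongjin, 9 of 20 HSP70, 4 of 6 HSP90 and 1 of 2 HSP100 genes fell, and none of those 3 classes rose. Of all genes 20% rose and 12.5% fell in that count. The part that length and coverage play in the class pattern was not tested further.

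**Figure D5:**
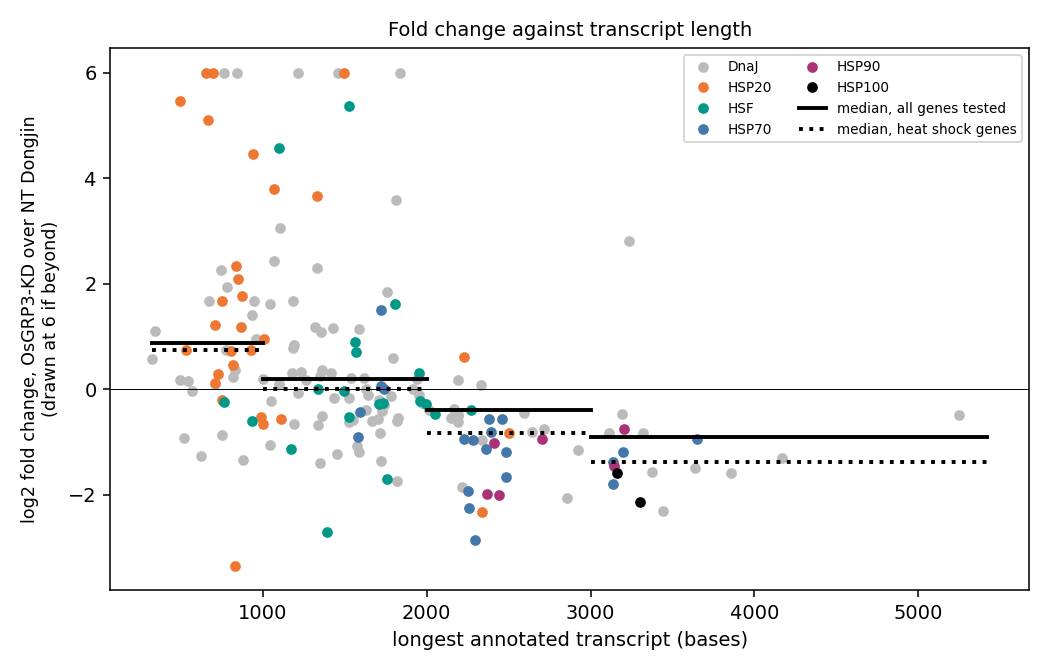
Log2 fold change of the knockdown over NT Dongjin (vertical axis, values beyond 6 drawn at 6) against the longest annotated transcript of each heat shock gene, coloured by class for the 6 main classes; solid lines are medians of all genes tested and dotted lines medians of heat shock genes, by length range. Both medians fall with length, from 0.88 and 0.74 under 1 kb to -0.91 and -1.39 over 3 kb.

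The test of the difference between the effects of overexpression and knockdown, each against its own NT cultivar, called 65 of 197 members (33%, where 34% of all genes were called, 12% higher and 22% lower), 30 higher and 35 lower in the overexpressor effect. By class, 14 of 29 HSP20-domain genes lay lower in it and 2 higher, while 6 of 20 HSP70 and 3 of 6 HSP90 genes lay higher and none lower. The lower HSP20-domain genes include those with no count in NT Dongjin. As no member was called in OsGRP3-OE, each of these differences includes the NT Dongjin libraries. NT Dongjin set directly against NT Nakdong gave 37 higher and 42 lower members (40.1%, where 38.9% of all genes were called, 14.3% higher and 24.7% lower), with 9 of 20 HSP70 genes higher and 2 lower, and 2 of 29 HSP20-domain genes higher and 15 lower. That comparison shares its control libraries with the others and is not a separate line of evidence.

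Other folding and proteolysis genes, listed by words in their descriptions outside the heat shock rule, were compared in the same fit. The words also matched some genes of other kinds. The co-chaperone list (FKBP-type isomerases, CS-domain proteins and the like) held a peroxidase (Os06g0274800), a phosphoinositide kinase (Os07g0573300) and an ion channel (Os02g0681000). The list for folding in the endoplasmic reticulum held a phosphoglycerate mutase (Os12g0536000) and an NAD(P)-binding protein (Os11g0499600). In OsGRP3-OE none was called of 35 chaperonin genes, 37 genes of the co-chaperone list and 15 of the endoplasmic reticulum list. Of all genes 1.47% were called there (0.619% up and 0.853% down), so few calls would be expected in lists of this size. Of 24 Clp and FtsH protease genes 1 fell. In OsGRP3-KD against NT Dongjin, 11 chaperonin genes rose and 9 fell, and 10 genes of the co-chaperone list rose and 2 fell. In the endoplasmic reticulum list 1 of 15 rose and 1 fell, and 8 Clp and FtsH genes fell with none rising. The shares called were, in that order, 57.1%, 32.4%, 13.3% and 33.3%, where 37.6% of all genes were called (23.8% up and 13.8% down). Against NT Nakdong none of these was called apart from 1 gene of the endoplasmic reticulum list, which fell. In that comparison 4.4% of all genes were called (1.36% up and 3.04% down). Summed TPM of the Clp and FtsH list was 3822 and 3729 in NT Dongjin and 1835 to 2027 in the other 6 libraries, and that of the chaperonins was 1667 and 1656 against 2003 to 2450.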

How the data were processed

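RNA-seq of rice leaves covered 8 libraries in 4 groups, taken from the sample labels. The authors deposited estimated counts per gene, FPKM and TPM, and per-library transcript files with read coverage, made with HISAT2 and StringTie 1.3.4d on IRGSP-1.0 per the file headers and the submitters' processing notes, while the study's methods name TopHat. The deposited counts are whole numbers that match StringTie coverage times transcript length over read length, and were used as they are. FPKM and TPM values are normalized to length and depth by the authors. The coverage signal in the deposited transcript files gave the exon ratios and the 3′-exon counts. Columns of the authors' own comparisons (fold changes and p-values) were not used.

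Genes passing edgeR's filterByExpr (24383) were scaled with TMM and fitted with group means over all 8 libraries by the quasi-likelihood test (edgeR 4.0.16, limma 3.58.1, R 4.3.3), with Benjamini-Hochberg adjustment over all genes tested. A call is a 2-fold difference at an adjusted p under 0.05, and the unadjusted p is named where used. Each SE was derived from the test, as the size of the log2 fold change over the square root of its quasi-likelihood F. It is approximate, and unreliable for genes with few counts. Of the 224 heat shock genes 27 did not pass the filter and were not tested. Alternatives were DESeq2 1.42.0, other scalings and filters, limma on log2 FPKM, the 3′-most exon, fits of 4 libraries, a replicate block and leaving out each library. limma on log2(TPM + 1) was added after the data were seen. On counts simulated for OsGRP3-OE against NT Nakdong, 170 of 200 changed genes were recovered with 14 false calls among 23888 genes (99% at 4- and 8-fold). That simulation does not cover OsGRP3-KD against NT Dongjin, where coverage differs between the groups. Named genes were the members past 2-fold in OsGRP3-OE at an unadjusted p, the 10 largest rises and falls among calls in OsGRP3-KD against NT Dongjin, the 6 largest differences between effects, and the 2 members of each class with the highest mean FPKM. The members, lists and tests were chosen with earlier results of these data known, and 10 members were moved between classes after their descriptions were read. Intervals cover counting error only. Figures were drawn with matplotlib 3.10.9 under Python 3.11.15.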

Additional observations from a re-analysis of the deposited data

Results flagged for a closer look

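The effects of overexpression and knockdown, each against the NT plants of its own cultivar, differed by a test of the difference for 65 of the 197 heat shock genes tested (edgeR quasi-likelihood test, 2-fold, adjusted p under 0.05), where 34% of all genes differed. The 6 largest differences on the log2 scale, overexpression minus knockdown, were -10.58 for Os05g0427900 (adjusted p = 4.1e-05), -10.28 for Os07g0443500 (0.0032), -9.91 for Os03g0157600 (0.00014), -8.71 for Os09g0345500 (0.0019), -8.37 for Os12g0624100 (0.0011) and -7.87 for Os05g0210600 (4.4e-07). The first 5 had no count in NT Dongjin and passed the filter through the other groups, so their fitted values depend on the prior count and are no bounds. Os05g0210600 held 0.19 and 0.14 CPM there. The ranking and its p-values restate the near absence of these genes in NT Dongjin, and none of them was called in OsGRP3-OE.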

How the results depend on the processing

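The alternatives gave 1407 values, which hold the median over the members in each setting as well as the named genes. Among the values of named genes, 17 lost and 4 gained significance. A further 25 changed sign, each in a comparison in which that gene was not called. In OsGRP3-OE, Os09g0375100 turned to -0.0256 with limma on log2(FPKM + 1), filtered or not, -0.0265 with a pseudocount of 0.1 and -0.0533 on TPM, and Os02g0782300 to 0.12 on the 3′-most exon. Leaving out each library gave ranges across 0 for Os09g0375100 (-0.0544 to 0.0746), Os02g0782300 (-0.0724 to 0.0567), Os08g0464000 (-0.25 to 0.15), Os05g0519700 (-1.05 to 0.0415), Os05g0110100 (-0.0967 to 0.32) and Os03g0277100 (-0.13 to 0.00969). In OsGRP3-KD against NT Dongjin, Os04g0549600 turned to -0.0335 with median-of-ratios scaling, -0.0336 with DESeq2, -0.00499 with no filter, -0.0194 in the fit of 4 libraries, -0.000723 with the replicate block, -0.000456 and -0.000458 with limma on FPKM at either pseudocount and -0.32 on TPM (-0.0864 to 0.0748 with each library left out), and Os02g0782300 to -0.22 on TPM. With the replicate number as a block, 37 members rose and 37 fell in OsGRP3-KD against NT Dongjin, and none was called in OsGRP3-OE. Same-numbered libraries did not deviate together (correlations -0.0261 and -0.000596), so the numbers do not pair the samples. Falls in OsGRP3-OE numbered 1 on TPM and 0 to 2 with each library left out (1 without NT Nakdong replicate 2, 2 without OsGRP3-OE replicate 2). Rises in OsGRP3-KD against NT Dongjin numbered 24 on TPM, where 14.7% of all genes rose. Asking for at least 10 counts in every library, which drops genes near 0 in NT Dongjin, left 23 rises in that comparison. Of all genes 19.5% rose there. Under the same filter 21 members were lower in the difference between effects, 24 in NT Dongjin against NT Nakdong and 5 in OsGRP3-KD against NT Nakdong. In the last comparison rises numbered 1 by DESeq2, 1 in the fit of 4 libraries and 2 on the 3′-most exon. The other counts of members in this section have no share of all genes beside them, so they show only how calls moved with the setting. The cause of these shifts beyond the filter's own construction was not tested.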
